A study of Homo sapiens with 6 samples.

Results

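The genes described here are the interphase cyclins and cyclin-dependent kinases (CDKs) of pancreatic ductal adenocarcinoma (PDAC) cells: the D-type cyclins CCND1 and CCND3, the E-type cyclins CCNE1 and CCNE2, the A-type cyclin CCNA2, the kinases CDK4, CDK6, CDK2 and CDK1, and the phosphatase CDC25A. These 10 genes were taken by symbol from the 53826 entries of each expression table. Each matched 1 entry, lay above the floor of the tables in all 6 libraries, and passed the filter on low values, a level of 5 TPM or more in any library, as did 12412 entries in all (TPM are read shares corrected for transcript length and scaled to a fixed total). Poly(A) RNA of the human lines PK-1 and Panc-1 was sequenced in a control library and after 24 h of treatment with LY2955303 (RARγi-1) or MM11253 (RARγi-2), inhibitors of retinoic acid receptor gamma with different structures. CDKN2A is altered in both lines, and SMAD4 in PK-1 only. Each condition had 1 library, so differences within a line have no replicate check. The test available over the 6 libraries, with the line as a block, is given after the counts. The libraries were grouped by their titles. The treatment entry of both RARγi-2 libraries names RARγi-1, so counts are also given from the RARγi-1 libraries alone. The doses used for sequencing, the vehicle of the controls and the time at which they were taken were not stated.

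Cyclins bind CDKs and switch their kinase activity on. D-type cyclins with CDK4 or CDK6 phosphorylate the retinoblastoma protein in G1, which frees E2F transcription factors, and cyclin E with CDK2 carries this further into S phase. Cyclin A then acts with CDK2 in S phase and with CDK1 towards mitosis, while CDC25A removes the inhibitory phosphates that WEE1 and PKMYT1 place on CDK2 and CDK1.

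Between 13149 and 13652 entries per library lay above the floor of 1 TPM, to which all lower values had been raised before deposit. The 6 epithelial markers KRT7, KRT8, KRT18, KRT19, EPCAM and CDH1 summed to 22498 TPM in the PK-1 control, 13507 with RARγi-1 and 14127 with RARγi-2, a sum carried by the keratins. CDH1, which encodes E-cadherin, stood at 170, 270.2 and 385 TPM in the same order, highest where it was treated. In Panc-1 the markers summed to 8418 TPM in the control, 1783 with RARγi-1 and 1484 with RARγi-2, and CDH1 was at the floor in all 3 libraries. Of 8 markers of acinar cells, fibroblasts, endothelium and blood, 7 were at the floor in all 6 libraries. The exception was PRSS1, a trypsinogen of acinar cells, at 1.06, 11.1 and 21.2 TPM in the control, RARγi-1 and RARγi-2 libraries of PK-1. The part of the epithelial and PRSS1 levels in the results was not tested. In bulk RNA, fewer cells in one phase of the cycle and less RNA per cell cannot be told apart.

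Promoter windows are shown for 3 genes that were lower past 2-fold in all 4 comparisons and for CDK4, which differed least. They were taken from RefSeq (GRCh38.p14) and run from 250 bases before to 50 bases after a transcription start, 5′ to 3′ on the strand of the gene. The search covered 11 windows of 7 of the 10 genes, and where a gene had several, the one with the most motif matches is printed. No window of CCND1, CCNE2 or CDK2 was searched, so nothing is said of the motifs of these genes. Capitals mark matches on either strand to E2F (TTTCCCGC, TTTCGCGC, TTTGCCGC or TTTGGCGC), to the cell cycle genes homology region, or CHR (TTTGAA or CTTGAA), to the CCAAT box (CCAAT) or to the E-box (CACGTG). Matches on the other strand appear as their reverse complement, and no marked matches overlapped. The windows are chr4:121823834-121824133 for CCNA2 (minus strand), chr10:60778228-60778527 for CDK1 (plus strand), chr3:48188368-48188667 for CDC25A (minus strand) and chr12:57752261-57752560 for CDK4 (minus strand).
CCNA2: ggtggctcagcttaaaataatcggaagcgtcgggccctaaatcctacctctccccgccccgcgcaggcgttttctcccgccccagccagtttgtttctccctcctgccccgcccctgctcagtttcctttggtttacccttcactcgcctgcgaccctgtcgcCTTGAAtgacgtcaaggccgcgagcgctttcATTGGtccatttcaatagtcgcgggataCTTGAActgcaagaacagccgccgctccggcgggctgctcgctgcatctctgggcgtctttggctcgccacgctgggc
CDK1: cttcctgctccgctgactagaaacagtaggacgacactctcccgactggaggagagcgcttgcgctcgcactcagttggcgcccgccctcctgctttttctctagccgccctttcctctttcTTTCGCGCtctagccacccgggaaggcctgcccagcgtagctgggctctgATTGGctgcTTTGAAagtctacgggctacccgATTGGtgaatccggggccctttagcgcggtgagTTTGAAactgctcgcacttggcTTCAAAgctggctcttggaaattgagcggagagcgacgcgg
CDC25A: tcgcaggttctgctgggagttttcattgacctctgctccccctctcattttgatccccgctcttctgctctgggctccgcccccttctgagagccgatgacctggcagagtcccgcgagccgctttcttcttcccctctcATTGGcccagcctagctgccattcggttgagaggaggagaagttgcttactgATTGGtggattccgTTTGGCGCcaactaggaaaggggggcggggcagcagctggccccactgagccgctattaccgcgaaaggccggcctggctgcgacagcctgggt
CDK4: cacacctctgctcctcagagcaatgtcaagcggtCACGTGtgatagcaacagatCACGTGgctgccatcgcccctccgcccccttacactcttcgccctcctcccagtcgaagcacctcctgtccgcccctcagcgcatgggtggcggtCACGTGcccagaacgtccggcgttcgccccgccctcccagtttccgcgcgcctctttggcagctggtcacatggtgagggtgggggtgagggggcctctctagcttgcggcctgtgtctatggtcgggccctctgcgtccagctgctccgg

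The window of CCNA2, which encodes cyclin A2, held 2 CHR matches and 1 CCAAT box. Its CHR matches began 87 and 28 bases before the start. The window of CDK1 held 1 E2F match 128 bases before the start, 3 CHR matches and 2 CCAAT boxes. That of CDC25A held 1 E2F match 44 bases before the start and 2 CCAAT boxes. In CDK4, there were 3 E-boxes and no match to the other motifs. Among the genes whose windows are not printed, CCNE1 had 0 matches. CDK6 had at most 1 match per window, an E-box, and CCND3 at most 1, a CCAAT box. CCNE1, CDK6 and CCND3 were also lower in all 4 comparisons. Over the 35116 promoter windows used as background, 3.31% held an E2F match, 23.9% a CHR match, 34.6% a CCAAT box and 7.26% an E-box. These matches describe letters in a window, and no binding was measured.

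**Figure D1:**
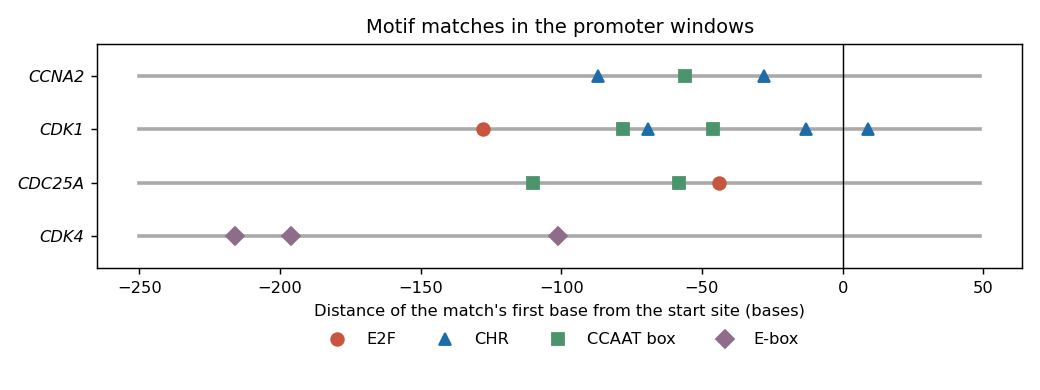
Positions of motif matches in the 4 promoter windows. Each grey line is a window, the x axis gives the distance in bases of a match's first base from the transcription start (vertical line), and symbols give the motif. The matches of CCNA2, CDK1 and CDC25A lie between 128 bases before and 9 bases after the start, and the E-boxes of CDK4 between 216 and 101 bases before it.

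To see how RARγ inhibition changed these genes, each treated library was compared with the control of its cell line. CCNE2, CCNA2, CDK2, CDK1 and CDC25A were lower past 2-fold with both inhibitors in both lines. The D-type cyclins, CCNE1 and CDK6 were lower in all 4 comparisons by smaller or more variable amounts. CDK4 was lower in PK-1 and close to its control in Panc-1. None of the 10 genes was higher past 2-fold in any comparison. In its pathway analysis, the study drew its cell cycle genes from entries lower past 2-fold with both inhibitors in both lines of these same libraries. The direction of the 5 genes that meet this selection is therefore not independent evidence. Apart from RNA, the study reported less phosphorylated CDK2 and less CDK4 and CDK6 protein by Western blotting.

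**Figure D2:**
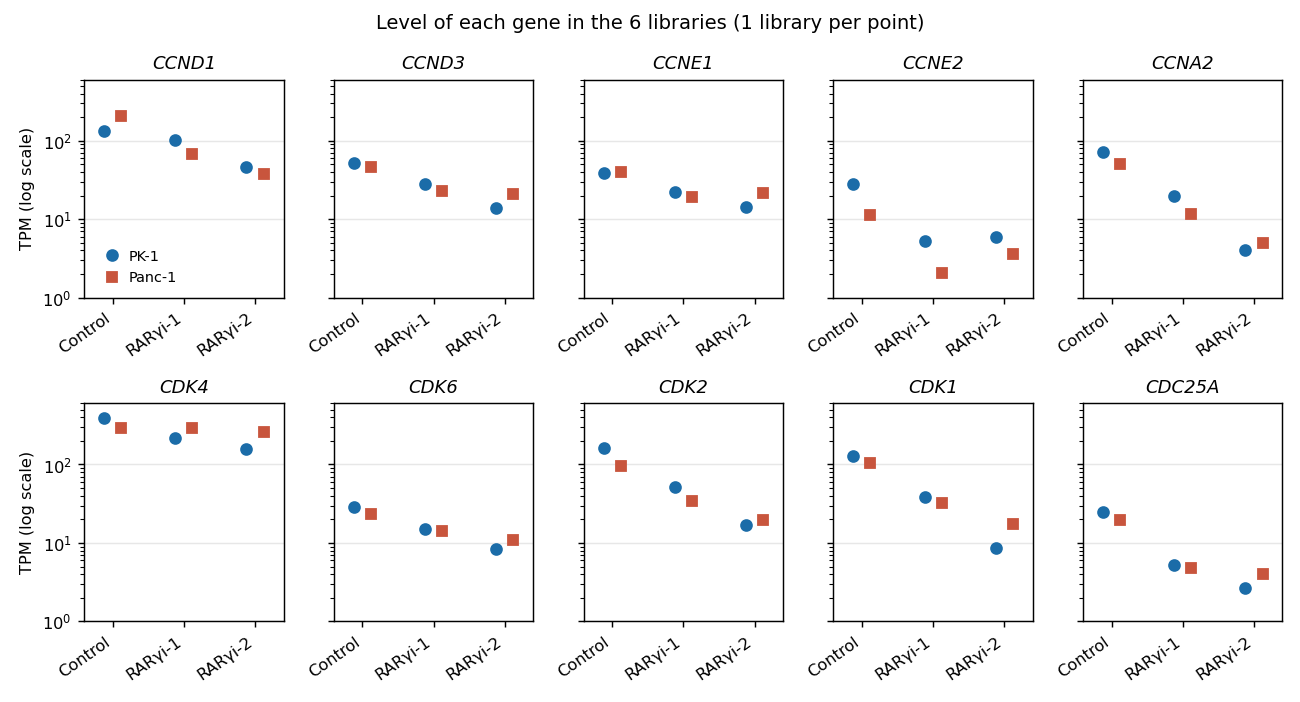
Level of each gene in TPM (log scale, y axis) in the control, RARγi-1 and RARγi-2 libraries (x axis) of PK-1 (blue circles) and Panc-1 (red squares). Each point is 1 library. CCNA2 runs from 72.2 to 4.01 TPM in PK-1, while CDK4 stays between 258 and 295 TPM in Panc-1.

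CCND1 encodes cyclin D1, the partner of CDK4 and CDK6 through which growth signals reach the cell cycle. It was measured at 135 TPM in the PK-1 control, 103 with RARγi-1 and 46.7 with RARγi-2, and at 205, 67.3 and 37.2 TPM in the same order in Panc-1. Both controls were the highest libraries of their line, and the RARγi-1 library of PK-1 was the treated library nearest to its control. On the scale of log2(TPM + 1), which all fold changes below use, the differences from control were -0.39 and -1.51 for PK-1, and -1.59 and -2.43 for Panc-1. They were set against a fold change spread, the median absolute deviation, scaled to an SD, of RARγi-2 minus RARγi-1 within a line over entries of similar level. This spread was 0.36 to 0.43 in PK-1 and 0.27 to 0.32 in Panc-1. It includes real differences between the inhibitors and misses whatever sets both treated libraries apart from their control. CCND1 with RARγi-1 in PK-1 differed by 1.10 times the spread, the smallest multiple of any gene here apart from CDK4 in Panc-1, and by 4.24 to 8.91 times in the other 3 comparisons.

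CCND3 encodes cyclin D3, another partner of CDK4 and CDK6. Its levels were 51.6, 28.0 and 13.8 TPM in the control, RARγi-1 and RARγi-2 libraries of PK-1, and 45.9, 22.9 and 21.1 TPM in those of Panc-1. The controls lay close together and all 4 treated libraries were below both of them. Its log2 fold changes were -0.86 and -1.83 for PK-1, and -0.97 and -1.08 for Panc-1, each at least 2.21 times the spread. The value for RARγi-1 in Panc-1 lay just short of 2-fold, and passed it without a pseudocount (-1.004) or after rescaling of the libraries (-1.06). Together, CCND1 and CCND3 were at 70.0% and 32.5% of their control TPM in PK-1 and at 35.9% and 23.2% in Panc-1, with RARγi-1 and RARγi-2 respectively.

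CCNE1 encodes cyclin E1, which activates CDK2 at the entry into S phase. It stood at 39.0, 22.4 and 14.4 TPM in PK-1 and at 39.7, 19.4 and 21.7 TPM in Panc-1, for control, RARγi-1 and RARγi-2. All treated libraries were below the controls, and in Panc-1 the treated libraries differed little. Relative to control, log2 fold changes were -0.77 and -1.37 for PK-1, and -0.995 and -0.85 for Panc-1, so it was past 2-fold in PK-1 with RARγi-2 alone. With RARγi-1 in Panc-1 it also passed 2-fold without a pseudocount (-1.03) and after rescaling (-1.08).

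CCNE2, which encodes cyclin E2, was the least abundant cyclin of the 10 genes in both controls. Its levels were 27.8, 5.24 and 5.998 TPM in PK-1 and 11.4, 2.05 and 3.61 TPM in Panc-1. Every treated library was below both controls, and within each line the RARγi-1 library was the lowest. The log2 fold changes were -2.21 and -2.04 for PK-1, and -2.02 and -1.43 for Panc-1, at 4.78 to 6.86 times the spread. The pseudocount weighs on such low levels: without one, the value with RARγi-1 in Panc-1 was -2.48. The ratio of CCNE1 to CCNE2 in TPM was 1.40 in the PK-1 control, 4.28 with RARγi-1 and 2.41 with RARγi-2. In Panc-1 it was 3.48, 9.48 and 5.999, higher in both treated libraries than in the control, as in PK-1.

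CCNA2, whose product acts with CDK2 and CDK1, had the largest single fold change of the 10 genes, with RARγi-2 in PK-1. It was measured at 72.2 TPM in the PK-1 control, 20.1 with RARγi-1 and 4.01 with RARγi-2, and at 50.4, 11.8 and 4.97 TPM in Panc-1. Both lines had the same order, with the control highest and the RARγi-2 library lowest. Its log2 fold changes were -1.80 and -3.87 for PK-1, and -2.005 and -3.11 for Panc-1, at 4.21 to 9.62 times the spread. With RARγi-2, CCNA2 was at 5.56% of its control TPM in PK-1 and at 9.87% in Panc-1. In PK-1 with RARγi-2, 0.105% of the 12412 entries had a lower fold change. The share of CCNA2 in the summed TPM of the 5 cyclins was 22.2%, 11.2% and 4.72% for PK-1, and 14.3%, 9.56% and 5.62% for Panc-1.

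CDK4, the main G1 kinase by level, had the highest TPM of the 10 genes in all 6 libraries. It was measured at 386 TPM in the PK-1 control, 218 with RARγi-1 and 157 with RARγi-2, and at 293, 295 and 258 TPM in Panc-1. The treated PK-1 libraries were below the control, whereas the Panc-1 libraries lay close to each other. Relative to control, log2 fold changes were -0.82 and -1.29 for PK-1, at 2.30 and 3.62 times the spread. In Panc-1 they were 0.01 and -0.18, at 0.05 and 0.68 times the spread, and the first of these turned to -0.08 after rescaling. The test of this difference between the lines is given with the fit over the 6 libraries.

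CDK6, the other partner of D-type cyclins, was far less abundant. Its levels were 28.8, 15.2 and 8.33 TPM in PK-1 and 23.1, 14.3 and 11.04 TPM in Panc-1, with the control highest and the RARγi-2 library lowest in both. The log2 fold changes were -0.88 and -1.68 for PK-1, and -0.65 and -1.001 for Panc-1, the last barely past 2-fold. CDK4 and CDK6 together were at 56.3% and 39.9% of control TPM in PK-1 and at 98.1% and 85.0% in Panc-1.

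CDK2, the kinase of cyclins E and A, was at 160.1, 51.6 and 17.1 TPM in PK-1 and at 94.7, 34.5 and 19.7 TPM in Panc-1. All treated libraries were far below both controls. Its log2 fold changes were -1.61 and -3.15 for PK-1, and -1.43 and -2.21 for Panc-1. CDK1, the mitotic kinase that also binds cyclin A, had levels of 128, 38.1 and 8.73 TPM in PK-1 and 104, 32.0 and 17.4 TPM in Panc-1. It had the same order of libraries as CDK2, with log2 fold changes of -1.72 and -3.72 for PK-1, and -1.67 and -2.51 for Panc-1. The sum of CDK1 and CDK2 was at 31.2% and 8.99% of control TPM in PK-1 and at 33.5% and 18.7% in Panc-1. The ratio of CDK4 to CDK2 was therefore 2.41, 4.22 and 9.18 across the PK-1 libraries and 3.09, 8.55 and 13.04 across those of Panc-1. CDK4 made up 54.9%, 67.5% and 82.1% of the summed TPM of the 4 kinases for PK-1, and 56.9%, 78.5% and 84.2% for Panc-1.

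CDC25A, the phosphatase that activates CDK2 and CDK1, was among the least abundant of the 10 genes. Its levels were 24.5, 5.20 and 2.67 TPM in PK-1 and 19.8, 4.74 and 4.07 TPM in Panc-1. All treated libraries were below both controls, and the treated libraries of Panc-1 differed by less than the spread. Relative to control, log2 fold changes were -2.04 and -2.80 for PK-1, and -1.86 and -2.03 for Panc-1, at 5.16 to 7.08 times the spread.

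**Figure D3:**
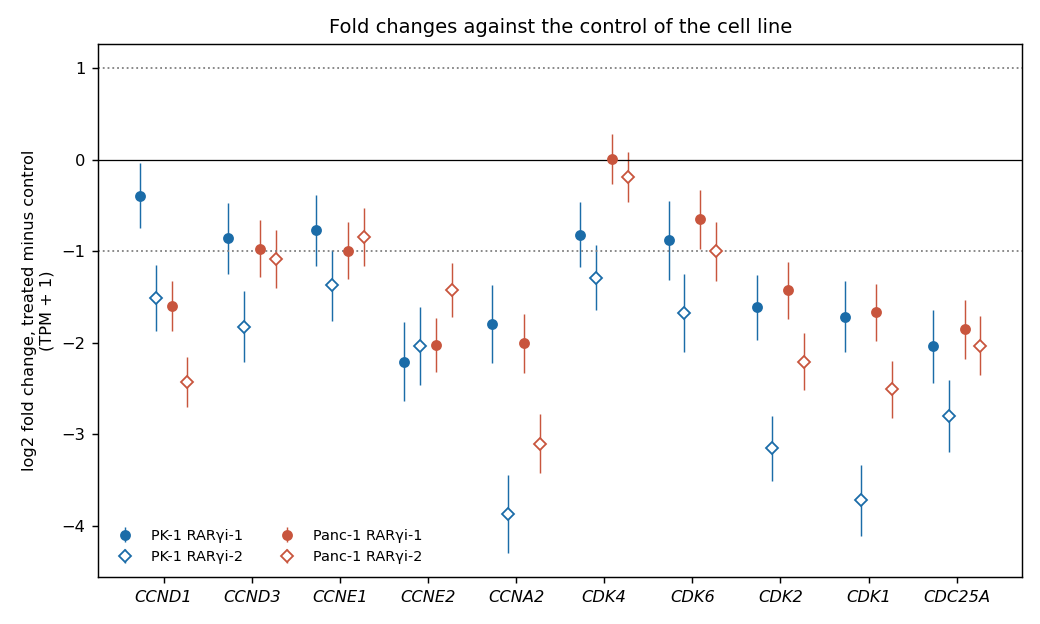
Log2 fold change of each gene (TPM + 1, treated minus control, y axis) for RARγi-1 (filled) and RARγi-2 (open) in PK-1 (blue) and Panc-1 (red). Bars give the fold change spread, not a replicate error, and dotted lines mark 2-fold. CDK4 in Panc-1 lies at 0.01 and -0.18, while CCNA2 in PK-1 with RARγi-2 lies at -3.87.

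With RARγi-1 in PK-1, 5 of the 10 genes were lower past 2-fold, against 5.20% of the 12412 entries, and 0 were higher, against 9.91%. With RARγi-2 in PK-1, all 10 were lower, against 13.5%, and 0 were higher, against 12.9%. In Panc-1, RARγi-1 gave 6 lower genes, against 6.51%, and 0 higher, against 7.86%. RARγi-2 in Panc-1 gave 8 lower genes, against 12.0%, and 0 higher, against 9.02%. The shares of lower genes were thus several times the share over all entries in each comparison. The genes were chosen with earlier results of these data known, so this excess, and those below, are not independent evidence. Over the 10 genes, median log2 fold changes were -1.25 and -1.93 for PK-1, and -1.51 and -1.73 for Panc-1, beside 0.13, 0, 0.05 and 0 over all entries.

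CCNE2, CCNA2, CDK2, CDK1 and CDC25A made up the 5 genes lower past 2-fold in all 4 comparisons, as did 2.19% of entries. The same 5 genes passed in both RARγi-1 comparisons, as did 2.30% of entries, so this count did not rest on the libraries with the conflicting treatment entry. Both RARγi-2 comparisons held 8 of the 10 genes, against 5.72% of entries, with CCND1, CCND3 and CDK6 added. All genes but CDK4 were lower by any amount in all 4 comparisons, that is 9 of 10, against 23.4% of entries. The comparisons of a line share their control library, so these joint counts are not independent.

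limma was also fitted to the 12412 entries over the 6 libraries, with the cell line as a block and 2 residual degrees of freedom. This fit was chosen after seeing the data. Its residual error is the difference in response between the lines, not a spread between replicates of a condition. limma moderated this error with a prior of 3.11 degrees of freedom drawn from all entries. With RARγi-1, CCNE2, CCNA2, CDK2 and CDC25A were lower at an adjusted p under 0.05 (Benjamini-Hochberg over all entries), 4 of 10 genes, against 1.55% of entries lower and 3.46% higher. Their mean log2 fold changes over the lines were -2.11 ± 0.24 (SE, adjusted p = 0.029), -1.90 ± 0.28 (0.038), -1.52 ± 0.27 (0.048) and -1.95 ± 0.26 (0.036). CDK1, at -1.69 ± 0.34, had an adjusted p of 0.055. Without either RARγi-1 library, 1 library of that inhibitor is left, so such a fit cannot decide whether these 4 calls rest on 1 line. With RARγi-2, 9 genes were lower, against 11.7% of entries lower and 11.2% higher, and the same limit holds for these calls. The largest decrease was that of CCNA2, at -3.49 ± 0.28 (adjusted p = 0.0072), and CDK4 was the gene that did not pass, at -0.74 ± 0.29 (adjusted p = 0.13). A further limma fit took both inhibitor libraries of a line as treated. Its residual error, also moderated over all entries, comes from the difference between the inhibitor libraries of a line, which are not replicates. In this further fit, the response of CDK4 differed between the lines by 0.97 ± 0.36 (Panc-1 minus PK-1, adjusted p = 0.46). By this fit 0 of the 12412 entries passed for a difference between the lines, with 1359 at an unadjusted p under 0.05.

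The inhibitor libraries of a line were also set beside each other. As the doses were not stated, the values compare libraries and not the potency of the compounds. In PK-1, 9 of the 10 genes were lower with RARγi-2 than with RARγi-1, against 62.9% of all entries, and all 9 differed by more than the spread, against 37.2%. The differences, as log2(TPM + 1) with RARγi-2 minus RARγi-1, were -2.07 for CCNA2, -2.01 for CDK1 and -1.54 for CDK2. CCNE2 was the exception, at 0.16, within the spread. In Panc-1, 8 genes were lower with RARγi-2, against 61.4% of entries, and 6 genes differed by more than the spread in either direction, against 37.4%. The counts of Panc-1 were thus nearer to those of all entries than the counts of PK-1. There, CCNA2 differed by -1.10, CDK1 by -0.84 and CCND1 by -0.84, whereas CCNE2 was higher with RARγi-2 by 0.60. The median over the 10 genes was -0.88 in PK-1 and -0.27 in Panc-1, beside -0.14 and -0.09 over all entries. CCNA2 was thus the gene with the largest decrease from RARγi-1 to RARγi-2 in both lines.

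**Figure D4:**
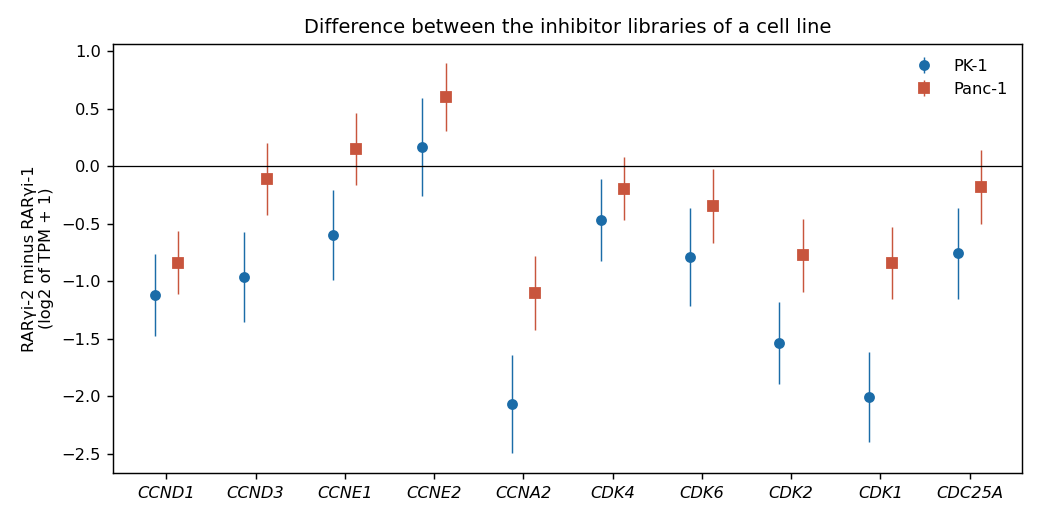
Difference between the RARγi-2 and RARγi-1 libraries of a line in log2(TPM + 1) (y axis) for each gene, in PK-1 (circles) and Panc-1 (squares). Bars give the fold change spread. CCNE2 lies above 0 in both lines (0.16 and 0.60), and CCNA2 is the lowest in both (-2.07 and -1.10).

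In the controls, CDK4 ranked first of the 10 genes by TPM in both lines, and CCND3, CCNE1 and CDK6 ranked sixth, seventh and eighth in both. CCNE2 was 2.32-fold higher in PK-1 and CCND1 was 1.52-fold higher in Panc-1, on the TPM + 1 scale. Over all entries, the robust SD of the log2 difference between the control libraries was 0.98. The differences of the other 9 genes were smaller than this, and that of CCNE2 was -1.21 (Panc-1 minus PK-1). Neighbours in the order of levels cannot be separated without replicates.

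The relatives of these genes were described by the same threshold. For the counts below, 2.19% of all entries were lower past 2-fold in all 4 comparisons. Of 9 paralogs, 7 passed the filter on low values, and CCNB1, CCNB2 and CCNF were lower past 2-fold in all 4 comparisons. CCNB1, a mitotic cyclin, was measured at 316, 124 and 38.4 TPM in PK-1 and at 339, 119 and 75.4 TPM in Panc-1. CCNF encodes cyclin F, a substrate receptor of a ubiquitin ligase, and its log2 fold changes were -1.62 and -2.99 for PK-1, and -1.77 and -2.29 for Panc-1. CCNB2, named because of its value, had log2 fold changes from -2.53 to -1.10. CCND2, the D-type cyclin outside the 10 genes, was at 61.9, 41.6 and 21.5 TPM in PK-1, and in Panc-1 at the floor in the control and at 6.71 and 6.72 TPM in the treated libraries. The low-abundance kinase CDK3 had log2 fold changes of 0.03 to 1.06, the lowest turning to -0.05 after rescaling. The paralogs' median log2 fold changes were -0.62 and -1.68 for PK-1, and -0.37 and -1.04 for Panc-1.

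Of 6 genes that set or remove phosphates on CDKs, 1 was lower past 2-fold in all 4 comparisons. This was PKMYT1, an inhibitory kinase of CDK1, at 94.8, 21.7 and 8.56 TPM in PK-1 and at 101, 30.6 and 27.01 TPM in Panc-1. WEE1, the other inhibitory kinase, and CDKN3, a CDK-associated phosphatase, were each lower past 2-fold in 3 of the 4 comparisons. CDK7, CCNH and MNAT1, which form the CDK-activating kinase, had log2 fold changes between 0.15 and 0.57, under 2-fold. The medians of these genes were 0.07 and -0.67 for PK-1, and -0.32 and -0.32 for Panc-1.

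Of 7 CDK inhibitor genes, 5 passed the filter, and CDKN2A and CDKN2B were at the floor in all 6 libraries. CDKN1A, which encodes the CDK inhibitor p21, was measured at 36.1, 349.9 and 468 TPM in PK-1 and at 86.1, 249.8 and 204 TPM in Panc-1. It was the gene of this list that was higher past 2-fold in all 4 comparisons, with log2 fold changes of 3.24 and 3.66 for PK-1, and 1.53 and 1.24 for Panc-1. CDKN2C, which encodes the CDK4 and CDK6 inhibitor p18, was lower past 2-fold in all 4, from 9.89 TPM in the PK-1 control to 2.70 and the floor, and from 62.0 TPM in the Panc-1 control to 7.13 and 9.90. CDKN1B, which encodes p27, had log2 fold changes of 0.87 and 1.13 for PK-1, and 0.74 and 0.91 for Panc-1. CDKN1C, which encodes p57, was at 11.9 and 10.9 TPM in the treated Panc-1 libraries against 4.20 TPM in the control, and at or near the floor in PK-1. CDKN2D, which encodes p19, had log2 fold changes of 0.33 and -0.02 in PK-1, the second turning to 0.02 after rescaling, and of -1.11 and -1.27 in Panc-1. The medians of the list were 0.33 and 0 for PK-1, and 0.74 and 0.91 for Panc-1.

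Of 13 genes of the RB and E2F family, which these kinases act on, E2F1, E2F2, E2F8 and TFDP1 were lower past 2-fold in all 4 comparisons. E2F1, an activating E2F, was measured at 68.6, 18.1 and 15.0 TPM in PK-1 and at 93.9, 17.4 and 16.4 TPM in Panc-1. E2F8, a repressing member, was at 19.7, 1.64 and the floor in PK-1, and at 9.81 TPM and the floor in both treated libraries of Panc-1, a decrease of at least 2.43 on the log2 scale. E2F2 and TFDP1, the latter a dimer partner of E2Fs, are named because of their values. The highest mean fold changes were those of E2F7, at 0.70 and 0.64 for PK-1 and past 2-fold with both inhibitors in Panc-1 (1.17 with RARγi-2), and E2F6, from 0.12 to 0.63, both repressors. The medians were -0.32 and -0.74 for PK-1, and -0.30 and -0.61 for Panc-1.

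Among 13 genes of cyclin turnover and assembly, SKP2 and FBXO5 were lower past 2-fold in all 4 comparisons, FBXO5 being named because of its value. SKP2, the ubiquitin ligase subunit that targets p27, had log2 fold changes of -1.78 and -2.73 for PK-1, and -1.12 and -1.82 for Panc-1. CDC20, an activator of the anaphase-promoting complex, had values of -1.39, -2.87, -0.99 and -1.62 in the same order. FBXO4 and FBXO31, F-box proteins linked to cyclin D1 turnover, had the highest mean fold changes, with 1.32 and 1.29 for FBXO4 in Panc-1 and 0.20 and 0.24 in PK-1. FBXO31 had values between 0.30 and 0.81. The medians were -0.26 and -0.39 for PK-1, and -0.11 and 0.02 for Panc-1.

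The CDKs and cyclins that act in transcription had medians above 0 in all 4 comparisons. Of 13 genes, 0 were lower past 2-fold in any comparison and 1 was higher, CDK9 with RARγi-2 in Panc-1 (1.03). With 5.20% to 13.5% of all entries lower and 7.86% to 12.9% higher per comparison, counts this low in 13 genes are near the background. CDK9, the kinase of the elongation factor P-TEFb, was at 51.1, 69.1 and 92.1 TPM in PK-1 and 38.2, 68.8 and 78.9 TPM in Panc-1. CDK12, which has a role in expression of long DNA repair genes, had log2 fold changes from -0.53 to -0.08. CDK8, a Mediator kinase, ranged from -0.34 to 0.34, whereas CCNL2, a splicing-linked cyclin, lay between 0.62 and 0.84, above the spread throughout. The medians were 0.23 and 0.27 for PK-1, and 0.33 and 0.32 for Panc-1.

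Of 19 further family members, 15 passed the filter and 0 were past 2-fold in one direction in all 4 comparisons. With 2.19% of all entries lower in all 4, a count of 0 in 15 genes is near the background. Their medians were 0.26 and 0.13 for PK-1, and 0.61 and 0.41 for Panc-1. CCNG2, an atypical cyclin of quiescent cells, had log2 fold changes of 2.10 and 1.86 for PK-1, and 1.12 and 0.86 for Panc-1. CDK17 was highest with RARγi-1 in Panc-1 (1.99), CDK5, best known from neurons, ranged from -1.41 to -0.59, and CABLES1 from -1.69 to 0.37.

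**Figure D5:**
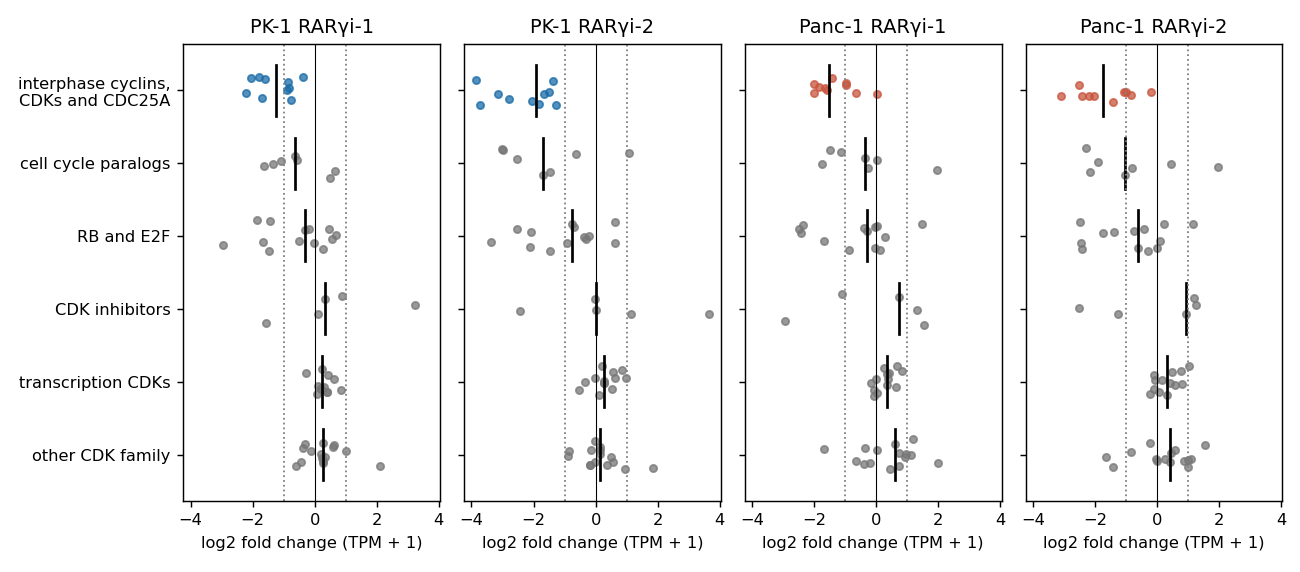
Log2 fold changes (TPM + 1, x axis) of the 10 interphase genes (coloured) and of the tested genes of 5 related lists (grey), 1 panel per comparison. Each point is a gene, black bars give list medians and dotted lines mark 2-fold. With RARγi-2 in PK-1 the median of the 10 genes was -1.93 and that of the transcription CDKs 0.27.

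For each gene, the 2 entries with the most similar 4 fold changes were found by Euclidean distance among 10629 entries that reached 10 TPM in any library. CDK1 lay nearest to KIF18B (distance 0.10), a mitotic kinesin, and to PRIM1 (0.21), the catalytic subunit of primase. CDK2 lay nearest to NDC80 (0.17), a kinetochore protein, and TMPO (0.18), and CCNA2 to PBK (0.38), a mitotic kinase, and MKI67 (0.50), which encodes the proliferation marker Ki-67. CDC25A was closest to NCAPD3 (0.29), a condensin subunit, and UNG (0.31), a uracil glycosylase. CCNE2 had no close neighbour, with ITGBL1 at 0.54 and CDC45, a replication helicase factor, at 0.80. CDK4 was nearest to NUP43 (0.09), a nucleoporin, and EEF2KMT (0.13). CCND1 was nearest to CRABP2 (0.36), a retinoic acid binding protein, and FAT1 (0.39), a cadherin. CCND3 was nearest to CBX3 (0.13) and OSR1 (0.16), CCNE1 to SNRPE (0.17) and ARHGAP19 (0.18), and CDK6 to ANP32E (0.13) and C9orf142 (0.13). The distances describe likeness over 4 values, pairs of which share a control.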

How the data were processed

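Poly(A) RNA libraries were prepared with a stranded kit, 1 for each of 6 conditions. The deposited values are log2 TPM (transcript levels corrected for length and scaled to a fixed total) that the authors floored at 1 TPM, so no value lies below 0 on the log2 scale. Per the labels, the build was hg38. The aligner, counting method and annotation are not given in the sources used here. TPM keep no depth, so no counting interval can be given.

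Log2 values were returned to TPM, and fold changes were taken as differences of log2(TPM + 1) between a treated library and the control of its line. Where a symbol was repeated, the entry with the highest mean was used. Entries that reached 5 TPM in any library formed the background. Python 3.11.15, numpy 2.4.6, pandas 2.3.3 and matplotlib 3.10.9 were used, and the scripts were tested on simulated data. limma 3.58.1 (R 4.3.3), with a mean-variance trend, was fitted with terms for line and treatment. The spread was computed within quartiles of mean level. Alternatives were no pseudocount, a pseudocount of 0.1 TPM, rescaling by median ratios, summed repeats and thresholds of 1.5-fold and 3-fold. The shifts of rescaling were -0.10 and 0.04 for PK-1, and -0.09 and -0.00 for Panc-1 (log2).

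The genes and lists were chosen with earlier results of these data known. Named genes were the 10 members, the 2 lowest and 2 highest of each other list by mean fold change (all genes of lists of 7 or fewer), and the 2 entries most like each member. Sequences came from RefSeq.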

Additional observations from a re-analysis of the deposited data

Results flagged for a closer look

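The 50 genes looked at were the 10 members and the genes named from the other lists, not the entries most like each member. Among these 50, CCND2 (cyclin D2) alone lay below its control with both inhibitors in one line and above it with both in the other. Its log2 fold changes were -0.56 with RARγi-1 and -1.48 with RARγi-2 in PK-1. In Panc-1 they were 1.95 and 1.95, which are lower limits, since the Panc-1 control was at the floor of 1 TPM. With both inhibitor libraries of a line taken as treated, limma over all entries gave a difference between the lines of 2.97 ± 0.61 (SE, log2, Panc-1 minus PK-1, adjusted p = 0.29), which did not pass. The residual error of this fit, moderated over all entries, comes from the difference between the inhibitor libraries of a line, which are not replicates.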

How the results depend on the processing

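The choice of threshold changed several counts. At 1.5-fold, 9 genes were lower with RARγi-1 in PK-1 (12.3% of all entries) and 8 in all 4 comparisons (5.76%), against 5 and 5 at 2-fold (5.20% and 2.19%). At 3-fold, 5 were lower with RARγi-2 in Panc-1 (5.37%) and 3 in all 4 comparisons (0.709%), against 8 and 5 at 2-fold (12.0% and 2.19%). The 160 recalculated fold changes of the 10 genes included 40 with summed repeats, which could not move, as each gene matched 1 entry. Over these 160, 157 moved by less than the spread, 6 crossed 2-fold (CCND3 and CCNE1 with RARγi-1 in Panc-1) and 1 changed sign. The last was CDK4 with RARγi-1 in Panc-1, from 0.01 to -0.08 after rescaling. The largest move was 0.45, for CCNE2 with RARγi-1 in Panc-1 without a pseudocount. The count in all 4 comparisons was 5 without a pseudocount, with 0.1 TPM and after rescaling, while summed repeats could not change it. It was also 5 with the RARγi-1 libraries alone, an alternative chosen after seeing the data. The recalculated differences between the inhibitors were also chosen after seeing the data, and after rescaling 8 genes in PK-1 and 5 in Panc-1 exceeded the spread, against 34.5% and 35.1% of all entries. The labels give no replicate numbers, so the cell line was the block of the limma fits. Without 1 library each, these fits had 1 residual degree of freedom and called 0 to 6 genes lower with RARγi-1 and 4 to 10 with RARγi-2. With RARγi-1, 0 passed when the PK-1 or the Panc-1 library of RARγi-1 was left out, and 5 passed in the RARγi-1 libraries alone. With RARγi-2, 4 passed without the PK-1 library of RARγi-2. In the fits without 1 library, the share of all entries that passed also changed widely. For each inhibitor it was lowest where the fewest of the 10 genes passed and highest where the most passed. Each of these fits also leaves 1 library in a group. The counts therefore cannot decide how stable the calls of these genes are. The other scales gave 4 and 9 genes throughout.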

Other observations

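Among the 10 genes themselves, the 4 fold changes of CCND3 and CDK6 were the most alike, at a Euclidean distance of 0.36, followed by CCNE1 and CDK6 at 0.50 and CCND3 and CCNE1 at 0.52. CDK2 and CDK1 were at 0.70 and CCNA2 and CDK1 at 0.70. CCNA2 and CDK4 were the farthest apart, at 4.49. The cyclin pairs CCNE1 and CCNE2 were at 1.98 and CCND1 and CCND3 at 1.59, and CDK4 and CDK6 were at 1.12.

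A few listed genes outside the naming rule, singled out after their values were seen, also lay on opposite sides of the control in the lines. CCNYL1, an atypical cyclin, had log2 fold changes of -0.30 and -0.19 for PK-1 and of 1.19 and 1.08 for Panc-1, the last 2 past 2-fold. RB1 had values of -0.52 and -0.74 for PK-1 and of 0.02 and 0.08 for Panc-1, where the first turned to -0.06 after rescaling. For CDC37, CCNC and CABLES2 all values were between -0.24 and 0.33. By the same limma fit, none of these differences between the lines passed at an adjusted p under 0.05, as was the case for all 12412 entries, of which 1359 had an unadjusted p under 0.05.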
